A study of Mus musculus with 18 samples.

Results

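Protein kinase C (PKC) enzymes are serine/threonine kinases that pass signals from receptors at the cell surface to channels, cytoskeleton and gene expression. The 8 genes described here, Prkca, Prkcb, Prkcd, Prkce, Prkch, Prkcq, Prkci and Prkcz, were chosen by gene name from the 39017 gene identifiers of the deposited tables, at a time when earlier results of these data were known. Their values are therefore given first as a description, and no count over them is independent evidence of a direction.

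Libraries were made by translating ribosome affinity purification (TRAP), a method that pulls down the tagged ribosomes of chosen neurons with the mRNA they carry. Per the labels, the neurons were those of entorhinal cortex layer II, although the tissue field of all 18 libraries says hippocampus. All mice received a vector that also encodes mCherry, and each library holds the pooled entorhinal cortices of both sides of 1 mouse. In the silencing experiment the vector carried an shRNA against Ptbp1 (4 libraries) or a scrambled shRNA (5 libraries). In the overexpression experiment it carried Ptbp1 (5 libraries) or was a control vector (4 libraries). The submitters left out 1 mouse with the Ptbp1 shRNA and 1 with the control vector because no reads matched mCherry. The mouse line, the promoter that drives the ribosome tag, the age and the sex were not stated.

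PKC enzymes fall into 3 classes by what turns them on. The conventional class (here PKCα and PKCβ, from Prkca and Prkcb) needs calcium and diacylglycerol, the lipid that phospholipase C forms in membranes. A class that responds to diacylglycerol without calcium holds PKCδ, PKCε, PKCη and PKCθ (Prkcd, Prkce, Prkch and Prkcq), and the atypical class (PKCι/λ and PKCζ, from Prkci and Prkcz) needs neither and works with polarity proteins. In neurons, conventional PKC and PKCε act at synapses, and Prkcz also gives PKMζ, a shorter kinase made from an internal start that lacks the inhibitory front part and is known from work on long-lasting synaptic change.

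The gene tables held 34339355 to 46544178 counts per library in silencing and 18288627 to 39056655 in overexpression. Coverage was less even in silencing: 14841 to 17908 genes were detected there against 19893 to 21456, and of the exon bins averaging 50 counts or more, a silencing library lacked 1.24% to 8.30% and an overexpression library 0.021% to 0.055%. The biological coefficient of variation was 90.1% in silencing and 22.3% in overexpression. Ptbp1 itself had 136, 143, 158, 129 and 118 CPM (counts divided by the library size after TMM scaling) with its vector and 17.2, 13.5, 9.96 and 12.3 with the control vector. With the Ptbp1 shRNA label libraries had 6.57, 0.101, 0.588 and 13.1 CPM and the scrambled libraries 3.38, 0.930, 6.72, 0.349 and 9.11, which overlap, so the counts of Ptbp1 do not set the libraries labelled Ptbp1 shRNA apart. Markers of superficial excitatory neurons summed to 1652 to 4650 CPM over all libraries and 6 hippocampal markers to 20.1 to 86.7 CPM. With the control vector the largest part of the first sum was Camk2a (1372 to 1887 CPM) and of the second Wfs1 (32.3 to 61.5 CPM). The sums hold unlike genes, so their sizes cannot tell entorhinal from hippocampal tissue.

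Levels are compared between genes as RPKM, CPM divided by the gene's exonic length in kilobases. This length joins the exons of all annotated transcripts, so it is too long for a gene whose reads cover only some of them. In the control vector libraries Prkce was the highest at 149 RPKM, followed by Prkcb at 101, Prkca at 33.0, Prkci at 26.8 and Prkcz at 21.8. These neighbours in the order did not overlap over the 4 libraries in RPKM. In CPM Prkci (139.8 to 156) and Prkcz (131 to 147) overlapped. Their order thus rests on the lengths used, 5551 and 6318 bases, and Prkcz had almost no reads on some of its exons (below). Prkcq stood far lower at 0.375 RPKM, and Prkcd at 0.158 and Prkch at 0.151 overlapped each other. The 5 libraries with the Ptbp1 vector gave the same order for the first 5 genes, from 152 RPKM for Prkce to 21.2 for Prkcz. Again neighbours did not overlap in RPKM, while Prkci (131 to 150 CPM) and Prkcz (125 to 143 CPM) did in CPM. In the scrambled libraries Prkce (130 RPKM) and Prkcb (103) overlapped, Prkci (53.6) and Prkca (53.0) did not differ beyond their spread, and Prkcz lay below them at 9.17. In the Ptbp1 shRNA libraries Prkce (97.8), Prkcb (91.3) and Prkci (72.7) overlapped in turn, and Prkca (27.1) and Prkcz (6.03) lay apart below them. Both experiments were separate sets of libraries with unlike evenness of coverage, so a gene's level in one set and in the other cannot be told apart from that difference.

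**Figure D1:**
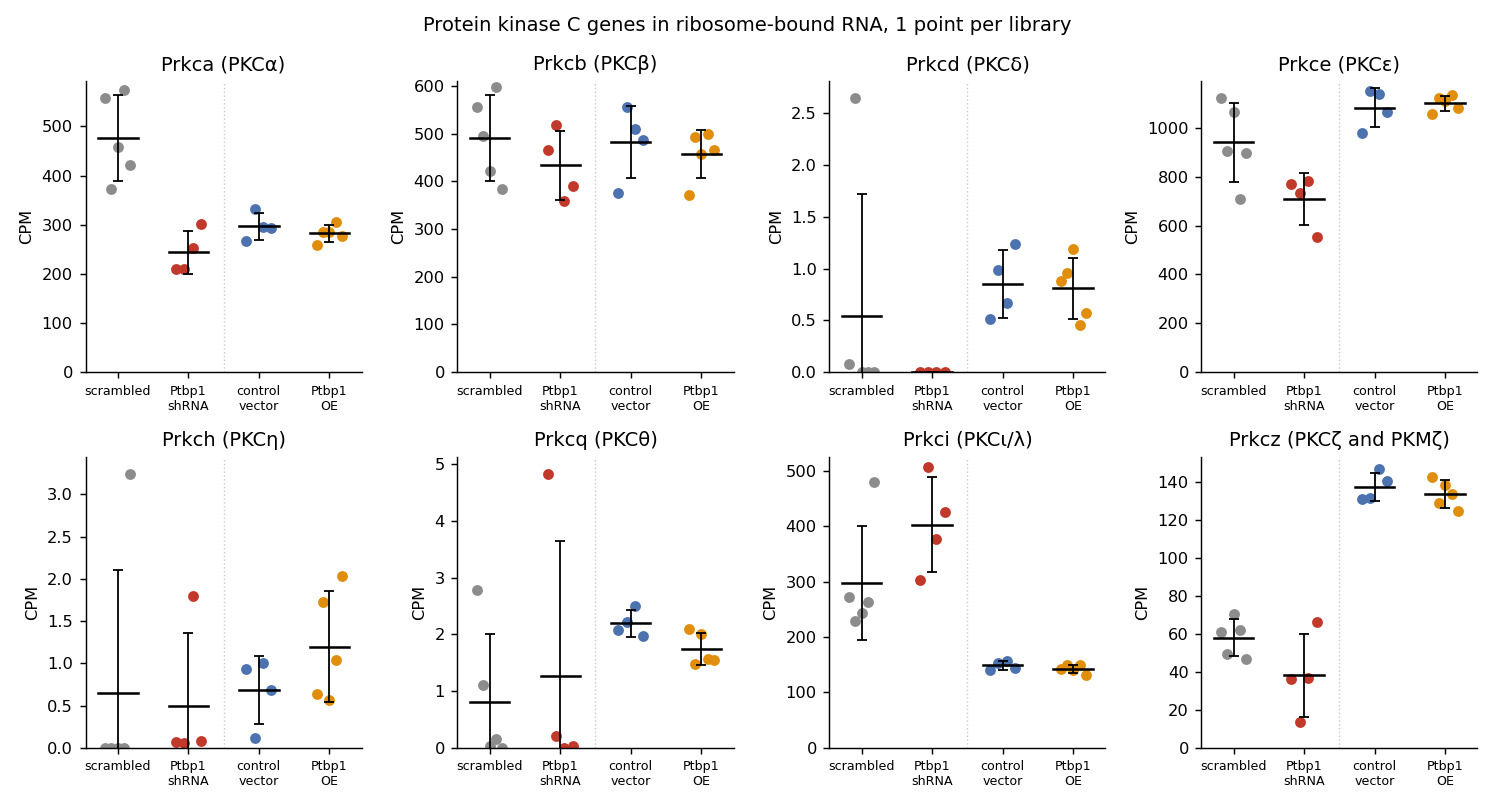
CPM of each PKC gene (y axis, starting at 0) in every library of the 4 groups (x axis), 1 point per library, with the group mean as a line and the SD as error bars. Prkca lies lower in all 4 Ptbp1 shRNA libraries than in all 5 scrambled libraries, and Prkcd, Prkch and Prkcq stay under 5 CPM everywhere.

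A gene was called changed when edgeR's quasi-likelihood test, fitted on all genes of an experiment, gave a Benjamini-Hochberg adjusted p under 0.05. After the filter on low counts 5 of the 8 PKC genes could be tested in silencing, all but Prkcd, Prkch and Prkcq, and all 8 in overexpression. The test called 0 of the 5 genes in silencing, where it called 0% of all 14656 genes tested, and 0 of the 8 in overexpression, where it called 0.0425% of 16480 genes. At an unadjusted p under 0.05 it picked 1 of the 5 PKC genes in silencing (11.2% of all genes tested) and 0 of the 8 in overexpression (4.78% of all). The median log2 fold change over the PKC genes tested was -0.41 in silencing, with 1 gene higher and 4 lower, beside 0.027 over all genes. In overexpression it was -0.066, with 2 higher and 6 lower, beside -8.02e-05 over all genes.

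Prkca encodes PKCα, a conventional kinase that docks on synaptic scaffolds through its tail. The gene lies on chromosome 11, from 107933387 to 108343928 on the minus strand of mm10. It had 557, 373, 458, 574 and 421 CPM in the scrambled libraries and 209.8, 211, 253 and 300.4 in the Ptbp1 shRNA libraries. Every Ptbp1 shRNA library lay below every scrambled library, as in 1 of the 5 PKC genes tested; in this experiment 4.84% of all genes tested had groups that did not overlap, in either direction. The log2 fold change was -0.97 (SE 0.21, 95% interval -1.42 to -0.51), a level 1.96-fold lower, with an adjusted p of 0.118 by edgeR, so the gene was not called. DESeq2 gave the same size with an adjusted p of 0.00556, in a fit that called 434 genes in all. edgeR with 1 spread for all 18 libraries gave an adjusted p of 0.00116, in a fit that called 1775. Leaving out each library in turn gave log2 fold changes from -1.09 to -0.89 with adjusted p from 0.104 to 0.255 by edgeR, and leaving out both libraries with the least even coverage (Ptbp1 shRNA replicate 2 and scrambled replicate 5) gave -0.95 with 0.231.

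Other values moved with Prkca in silencing. The summed level of 8 markers of superficial excitatory neurons was 2745 to 4650 CPM in the scrambled and 1652 to 2721 CPM in the Ptbp1 shRNA libraries, with no overlap and no marker at 0 throughout. Their part in the Prkca difference was not tested, and in bulk RNA fewer cells of a type and less RNA per cell cannot be told apart. The 6 astrocyte markers summed to 623 to 1031 and 318 to 788 CPM, which overlap. Nearly all of this was Slc1a2, with 618 to 995 and 303 to 776 CPM, and no other astrocyte marker passed 21.4 CPM in silencing. The 7 microglial markers summed to at most 19.3 CPM in silencing. Prkca shares 30 exonic bases with Apoh on the opposite strand, and the strand setting of the counting was not stated.

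In overexpression Prkca had 266, 333, 295 and 293 CPM with the control vector and 258, 286, 286, 306 and 276 with Ptbp1. The groups overlapped, and no PKC gene had groups apart here, beside 1.81% of all genes tested. The log2 fold change was -0.07 (SE 0.08, 95% interval -0.25 to 0.10, adjusted p = 0.974 by edgeR). The difference between the silencing and the overexpression response of Prkca, fitted over all 18 libraries, was -0.91 on the log2 scale (SE 0.21, 95% interval -1.35 to -0.46) with an adjusted p of 0.067 by edgeR. That test called 0 of the 8 PKC genes and 0.225% of 17779 genes. It used 1 spread per gene for both experiments, although the biological coefficient of variation was 90.1% in silencing and 22.3% in overexpression. Its SE, interval and p may therefore be too small for the more variable silencing libraries. With DESeq2 the Prkca difference passed at an adjusted p of 0.00482. It also passed in edgeR without scrambled replicate 2 (0.0468), without scrambled replicate 5 (0.0487) or without Ptbp1 shRNA replicate 4 (0.0276). In the other 15 of the 18 fits that left out 1 library it did not pass, with adjusted p up to 0.158 by edgeR. Nor did it pass in edgeR with another scaling or without the filter on low counts (adjusted p up to 0.116).

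Prkcb encodes PKCβ and ends in either of a pair of alternative last exons, which give the kinases PKCβI and PKCβII unlike tails. The gene spans 122288751 to 122634402 on the plus strand of chromosome 7 (mm10). The coding parts of both last exons are shown because the tail they encode is the only stretch in which PKCβI and PKCβII differ. Both were read from GENCODE M21 transcripts, at chr7:122627656-122627814 for βII (Prkcb-202) and chr7:122633745-122633897 for βI (Prkcb-201), with the stop codon in capitals.
βII end: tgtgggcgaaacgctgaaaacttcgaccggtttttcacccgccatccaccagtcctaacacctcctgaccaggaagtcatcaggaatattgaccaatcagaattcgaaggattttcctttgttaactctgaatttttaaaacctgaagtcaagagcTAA
βI end: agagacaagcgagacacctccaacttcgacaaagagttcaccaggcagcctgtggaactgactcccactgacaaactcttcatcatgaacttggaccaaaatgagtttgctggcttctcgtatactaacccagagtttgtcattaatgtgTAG

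At the gene level Prkcb had 556, 495, 421, 598 and 383 CPM in the scrambled and 466, 518, 359 and 391 CPM in the Ptbp1 shRNA libraries. The ranges overlap widely, and the log2 fold change was -0.18 (SE 0.20, adjusted p = 0.820 by edgeR). With the control vector it had 376, 555, 509 and 487 CPM and with Ptbp1 372, 494, 457, 498 and 465. Here the log2 fold change was -0.08 (SE 0.11, 95% interval -0.32 to 0.17, adjusted p = 0.975 by edgeR).

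The choice between the ends was measured as the counts on the βII exon in percent of the counts on both exons. An annotated transcript (Prkcb-205) joins part of the βII exon to the βI exon, so the counts on both exons may include it. Its coding sequence lies in the βII part and not in the βI exon, so its reads on the βI exon would count as βI. The control vector libraries gave 54.2%, 60.2%, 56.4% and 58.8% βII, 57.4% ± 2.66 (SD, n = 4). The Ptbp1 overexpression libraries gave 57.7%, 54.3%, 55.0%, 58.6% and 54.7%, 56.1% ± 1.95 (n = 5). The groups interleave: the difference was -1.35 percentage points (two-sided exact permutation p = 0.397). In silencing the scrambled libraries gave 42.2%, 37.9%, 39.3%, 38.3% and 22.9% βII, 36.1% ± 7.59 (n = 5). The Ptbp1 shRNA libraries gave 41.3%, 36.3%, 50.2% and 43.6%, 42.8% ± 5.75 (n = 4), a difference of 6.73 points (exact permutation p = 0.190). The smallest p that 4 against 5 libraries allow is 0.0159. Each value rests on 3384 to 12788 counts. In the library with the fewest, control replicate 3, the exact binomial 95% interval runs from 54.7% to 58.1%, which covers counting error only.

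**Figure D2:**
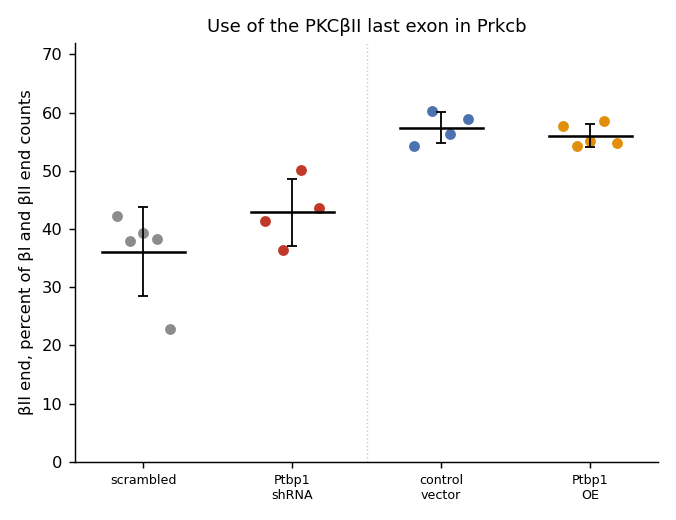
Counts on the βII last exon of Prkcb in percent of the counts on both alternative last exons (y axis, from 0) in each library of the 4 groups (x axis), with group means and SD. Control and Ptbp1 overexpression libraries interleave between 54.2% and 60.2%, and the lowest point, 22.9%, is scrambled replicate 5.

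Prkce encodes PKCε, a kinase that also binds actin and acts in presynaptic terminals. It lies on chromosome 17 from 86167785 to 86657919 (mm10, plus strand) and was the most abundant PKC gene per length in every group mean. Scrambled libraries had 1123, 907, 1066, 709.9 and 898 CPM and Ptbp1 shRNA libraries 769.6, 733, 785 and 552. Ptbp1 shRNA libraries were lower on average, but scrambled replicate 4 lay within their range. The log2 fold change was -0.41 (SE 0.19, 95% interval -0.82 to 0.0099, adjusted p = 0.460 by edgeR). In overexpression the values were 978, 1150.3, 1138 and 1064 CPM with the control vector and 1059, 1121, 1110, 1137 and 1080.3 with Ptbp1. These lie within a narrow band, with a log2 fold change of 0.02 (SE 0.07, 95% interval -0.12 to 0.17, adjusted p = 0.983 by edgeR).

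The other genes of the calcium-independent class were near the limit of detection. Prkcq encodes PKCθ, best known from T cell receptor signalling, and it is on chromosome 2 from 11172108 to 11301222 (plus strand). Its counts were 49, 56, 45 and 46 with the control vector and 86, 48, 42, 38 and 35 with Ptbp1, in CPM 2.19 ± 0.232 (SD, n = 4) and 1.74 ± 0.287 (n = 5). These ranges overlap, and the log2 fold change was -0.33 (SE 0.27, adjusted p = 0.974 by edgeR). In silencing the scrambled libraries held 107, 46, 1, 7 and 0 counts and the Ptbp1 shRNA libraries 228, 8, 0 and 1. Most Prkcq counts of each silencing group thus came from a single library, replicate 1 in both. The 5 T cell markers summed to at most 0.209 CPM in silencing and 2.46 CPM in overexpression, with Cd3e, Cd3g, Cd3d and Cd2 at 0 in all silencing libraries and Cd3g and Cd2 at 0 in all overexpression libraries.

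Prkcd encodes PKCδ, a kinase tied to apoptosis and stress and a marker of some thalamic and amygdala neurons; it is on chromosome 14 from 30595354 to 30626210 (minus strand). It had 12, 25, 12 and 29 counts with the control vector and 36, 31, 25, 11 and 13 with Ptbp1. The groups overlap, with a log2 fold change of -0.08 (SE 0.44, 95% interval -1.02 to 0.87, adjusted p = 0.991 by edgeR), an interval too wide to show a 1.5-fold change. In silencing 7 of the 9 libraries had 0 counts, among them all 4 Ptbp1 shRNA libraries, whereas scrambled replicate 1 had 3 and scrambled replicate 2 had 111, spread over 11 of its 39 exon bins. Against a floor of 3 counts per library this is a matter of a single library, so no fold change is given.

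Prkch encodes PKCη, known from epithelial and immune cells, and lies on chromosome 12 from 73584796 to 73778185 (plus strand). It had 22, 3, 18 and 16 counts with the control vector and 26, 56, 12, 25 and 46 with Ptbp1. The groups overlap, and the log2 fold change of 0.82 had an SE of 0.57 and an adjusted p of 0.974 by edgeR. In silencing scrambled replicate 5 had 100 counts and the other scrambled libraries 0, while the Ptbp1 shRNA libraries had 3, 2, 64 and 3. A single library in each silencing group thus held most counts of Prkch. Neither Prkcq, Prkcd nor Prkch had an exon bin that could be tested in either experiment.

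Among the atypical kinases, Prkci encodes PKCι/λ, the partner of Par3 and Par6 in cell polarity. It lies on chromosome 3 from 30995747 to 31052959 (plus strand). Scrambled libraries had 272, 229, 243, 264 and 479.8 CPM and Ptbp1 shRNA libraries 304, 507, 377 and 426. All Ptbp1 shRNA libraries were above 4 of the 5 scrambled libraries, and scrambled replicate 5 lay among them. The log2 fold change was 0.44 (SE 0.25, 95% interval -0.11 to 0.99, adjusted p = 0.569 by edgeR), the only positive value among the 5 genes tested. In overexpression the values were 139.8, 154, 156 and 145 CPM with the control vector and 142, 150.1, 141, 149 and 131 with Ptbp1. The log2 fold change was -0.06 (SE 0.08, adjusted p = 0.974 by edgeR).

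Prkcz encodes PKCζ and, from an internal first exon, PKMζ, and it lies on chromosome 4 from 155260129 to 155361361 on the minus strand. A pair of sequences marks where the transcripts part and is shown for that reason: an exon of PKCζ upstream of the PKMζ start (chr4:155356427-155356516, in full-length Prkcz-201 and in the truncated Prkcz-203, not in Prkcz-202), and the first 85 coding bases of the short transcript taken here as PKMζ (Prkcz-202). The latter stretch runs over an intron within chr4:155293158-155294269, and its start codon is in capitals. Both are from GENCODE M21 transcripts (mm10), written 5′ to 3′ on the minus strand.
Upstream PKCζ exon: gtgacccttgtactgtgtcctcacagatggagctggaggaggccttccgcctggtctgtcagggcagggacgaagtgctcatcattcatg
PKMζ coding start: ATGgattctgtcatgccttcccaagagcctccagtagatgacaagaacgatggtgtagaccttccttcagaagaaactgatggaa

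At the gene level Prkcz had 60.9, 49.3, 70.3, 62.3 and 46.9 CPM in the scrambled and 36.2, 13.4, 36.5 and 66.2 CPM in the Ptbp1 shRNA libraries. In silencing 3 of the 4 Ptbp1 shRNA libraries were below every scrambled library and replicate 4 was not. The log2 fold change was -0.61 (SE 0.41, 95% interval -1.50 to 0.28, adjusted p = 0.645 by edgeR). In overexpression it had 131, 132, 147 and 141 CPM with the control vector and 143, 129, 138, 134 and 125 with Ptbp1, a log2 fold change of -0.04 (SE 0.08, 95% interval -0.21 to 0.13, adjusted p = 0.978 by edgeR).

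Almost no Prkcz counts fell on the exons of PKCζ that lie upstream of the PKMζ start. These 5 upstream PKCζ bins, 473 bases in all, are in Prkcz-201 but not in Prkcz-202, and 3 of them are also in the truncated Prkcz-203. They held 10 counts over the 4 control vector libraries, beside 10330 on the 18 bins shared with PKMζ (2168 bases). Per kilobase this is 5.29 ± 6.34 counts on the upstream PKCζ bins, 153 ± 47.1 on the first exon of PKMζ (323 bases) and 1191 ± 177 on the shared bins (SD, n = 4). With Ptbp1 overexpression the upstream PKCζ bins held 15 counts, 6.34 ± 6.34 per kilobase (n = 5). The PKMζ first exon had 219 ± 94.0 per kilobase and the shared bins 1474 ± 496. These counts were not scaled for library size, which reached 39056655 with Ptbp1 and 26325826 with the control vector. They compare regions within a group, not levels between groups. The first exon of PKMζ held 36, 69, 39 and 54 counts in the control and 124, 51, 58, 54 and 66 in the Ptbp1 libraries, and the upstream PKCζ bins at most 6 in any of them. Other annotated short transcripts also use the shared bins, so the shared counts are not PKMζ alone.

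As a share of the counts on both sets of bins, the upstream PKCζ bins took 0.256%, 0%, 0% and 0.148% in the control libraries, 0.101% ± 0.125 (n = 4). They took 0.120%, 0.182%, 0%, 0.107% and 0% with Ptbp1, 0.0817% ± 0.0799 (n = 5). The difference of -0.0192 points was smaller than the spread (two-sided exact permutation p = 0.841). A count of 0 allows a share of up to 0.0978% to 0.135% in these 4 libraries at 0. In silencing scrambled replicate 2 held 21 counts of 1250, 1.68% with an exact binomial 95% interval of 1.04% to 2.56%, and the other 8 libraries held 0, which allows shares of up to 0.141% to 0.850%. The group means were 0.336% ± 0.751 and 0% (exact permutation p = 1.0). Coverage of Prkcz in silencing thinned toward its 5′ end, and the PKMζ first exon had 0 to 37 counts per library, so these libraries say little about the start.

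**Figure D3:**
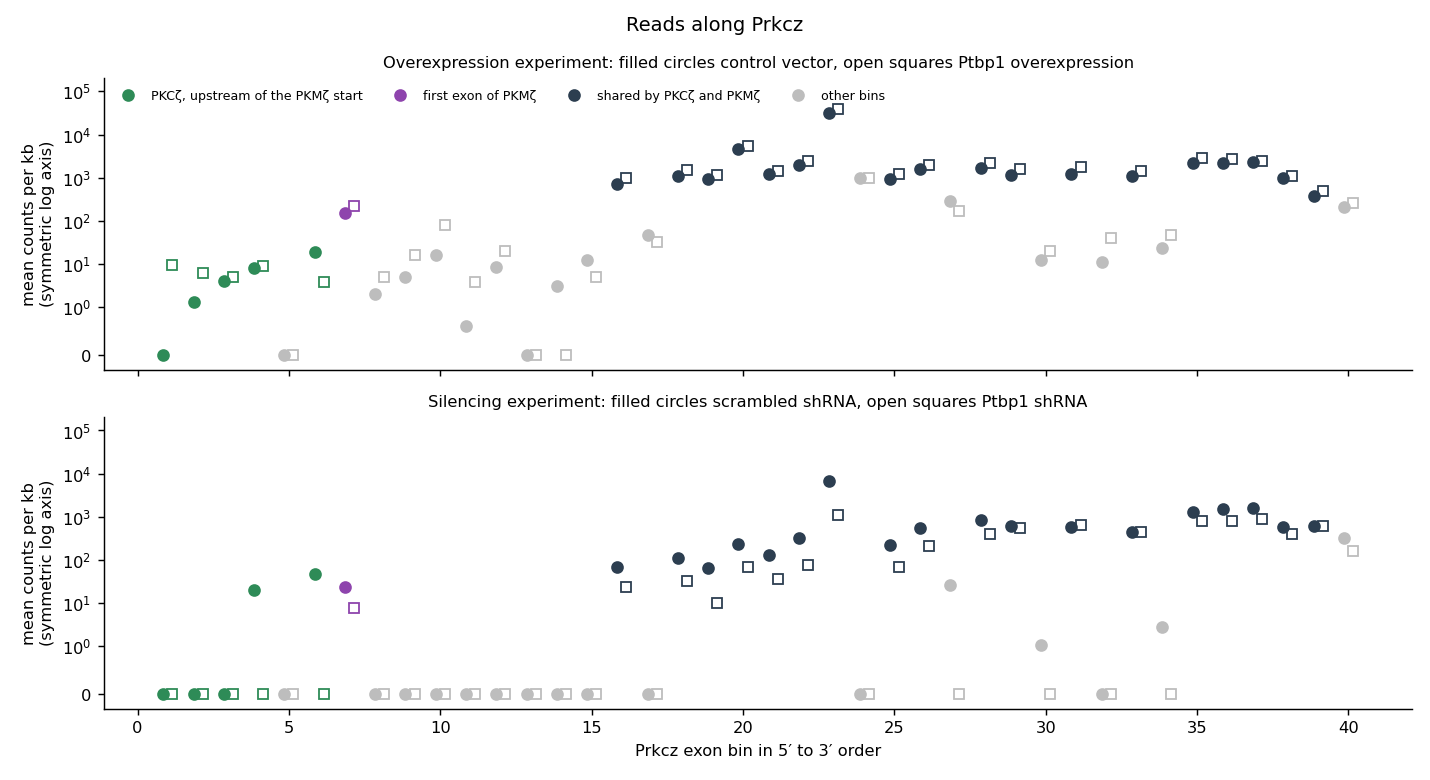
Mean counts per kilobase, not scaled for library size (y axis, symmetric log scale, linear below 1), of each Prkcz exon bin in 5′ to 3′ order (x axis). Overexpression is at the top and silencing at the bottom, with filled circles for controls and open squares for Ptbp1 vectors. Upstream PKCζ bins (green) lie far below the PKMζ first exon (purple) and the shared bins (dark) in overexpression; the topmost point is a bin of 2 bases.

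The use of single exon bins was compared by diffSpliceDGE of edgeR, which sets the change of each bin against that of its gene. In silencing 90 of the 217 bins of the PKC genes could be tested and 0 were called, beside 0.0012% of all 83164 bins, and 0 of them had an unadjusted p under 0.05, beside 1.96% of all bins. In overexpression 105 were tested and 0 called, beside 0.034% of 117580 bins, with 1 at an unadjusted p under 0.05 (1.37% of all bins). This was bin 001 of Prkcb, untranslated sequence at its 5′ end (chr7:122288751-122289296), which took 0.136% ± 0.109 of the gene's bin counts with the control vector and 0.285% ± 0.0807 with Ptbp1. Its log2 relative usage was 0.68, with an adjusted p of 1.00 by diffSpliceDGE. The neighbouring bin 002 of Prkcb followed with 0.36, and bins 002, 004 and 013 of Prkce with -0.54, -0.18 and -0.15.

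In silencing the member bins with the smallest p were 4 coding bins of Prkci and 1 of Prkca. Bins 004 and 005 of Prkci, near the 5′ end, had log2 relative usages of -1.67 and -1.62, and bins 021 and 022, near the 3′ end, 0.99 and 0.95. Bin 016 of Prkca had 1.32. All 5 had adjusted p of 1.00 by diffSpliceDGE. The 4 Prkci bins each took under 4% of its counts on average in either group.

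The abundant PKC genes also shared a pattern along their length that differed between the experiments. The last exon of Prkca, 70.0% of its exonic length, held 75.1% ± 5.78 of its bin counts in the scrambled libraries and 55.4% ± 1.86 with the control vector. For Prkcb, both last exons together held 70.6% ± 5.17 and 42.3% ± 1.35. For Prkce the values were 52.9% ± 9.20 and 28.1% ± 2.54, for Prkci 78.0% ± 11.97 and 46.1% ± 4.66, and for Prkcz 56.6% ± 13.5 and 30.4% ± 4.62 (SD, n = 5 and 4). In all 5 genes the silencing libraries thus had more of their counts at the 3′ end. The Ptbp1 shRNA libraries had 52.3% to 75.1% and the Ptbp1 overexpression libraries 28.6% to 53.6% as group means over the same genes. The part of this difference in the βII shares of the silencing libraries was not tested.

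**Figure D4:**
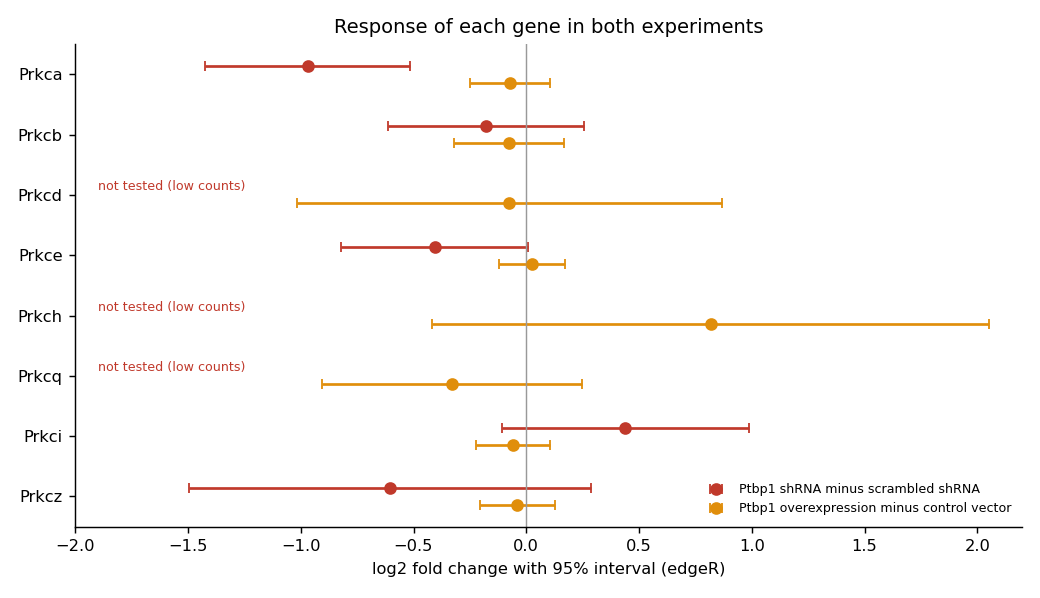
Log2 fold change (x axis) with its 95% interval for each PKC gene (y axis) in silencing (red) and overexpression (orange), from edgeR. The Prkca interval in silencing, -1.42 to -0.51, lies below 0; 3 genes had too few counts to test in silencing, and all overexpression intervals include 0.

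Genes that work with PKC were taken from a list of 99 in 9 roles. In silencing 87 could be tested and 0 were called, 34 were higher and 53 lower, with a median log2 fold change of -0.20; 7 higher and 10 lower had an unadjusted p under 0.05, beside 11.2% of all genes tested. In overexpression 96 were tested and 0 called, 45 were higher and 51 lower, with a median of -0.016; 2 higher and 4 lower had an unadjusted p under 0.05, beside 4.78% of all. The genes named next are among those with the smallest p of their role, and their adjusted p by edgeR ran from 0.0656 to 0.737 in silencing and from 0.779 to 0.974 in overexpression, so all were uncalled. Over all genes tested, 4.84% in silencing and 1.81% in overexpression had groups that did not overlap. A choice by small p favours such genes, so groups that do not overlap in a named gene add no evidence.

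Of the PKC-related kinases, Pkn2 had a log2 fold change of -0.19 in overexpression, with overlap. Upstream of the kinases, the G protein genes Gnaq and Gna11, which couple receptors to phospholipase C, had log2 fold changes of -0.50 and -1.11 in silencing, and Gna11 was lower in every Ptbp1 shRNA library. The receptor genes Htr2a and Adra1a had 0.51 and -0.59 in overexpression, with overlap. Of the phospholipase C genes, Plch1 had 2.37 and Plcb4 -0.81 in silencing, and Plcb3 0.78 and Plch1 0.41 in overexpression. Diacylglycerol kinases remove the lipid that activates PKC: Dgkd had 0.90 and Dgkq -0.67 in silencing, and Dgkz and Dgkd -0.18 and -0.12 in overexpression. In calcium release, Stim2 had 0.64 and Itpr2 -2.21 in silencing, the latter from under 0.5 CPM, and Itpka, an inositol trisphosphate kinase, was lower in every Ptbp1 overexpression library with -0.29 (SE 0.10).

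Chn2 and Rasgrp1 bind diacylglycerol as PKC does, through the same type of domain. Chn2, a Rac regulator, went from 118 ± 35.9 CPM in the scrambled to 27.8 ± 14.9 in the Ptbp1 shRNA libraries, with no overlap (log2 fold change -2.08, SE 0.39, adjusted p = 0.0656 by edgeR). Rasgrp1, a Ras activator, had 2279 ± 200 and 1345 ± 274 CPM, also without overlap (-0.76, SE 0.18, adjusted p = 0.142). In their role 1 of 9 genes was higher and 8 lower in both experiments. The medians were -0.76 in silencing and -0.15 in overexpression, where Chn2 had -0.27 and Rasgrp1 -0.21. Other roles also leaned, in either direction. Anchors and scaffolds had 4 higher and 10 lower in silencing and 13 higher and 3 lower in overexpression. Phospholipase C genes had 5 and 4 in silencing and 9 and 3 in overexpression. Receptors and G proteins had 4 higher and 9 lower in both. Over all genes tested 48.8% were lower in silencing and 50.02% in overexpression.

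For maturation and removal, the chaperone gene Hsp90aa1 was higher in every Ptbp1 shRNA library (4514 ± 881 against 2917 ± 340 CPM, log2 fold change 0.63, adjusted p = 0.195 by edgeR) and had -0.10 in overexpression. Mlst8 had -3.08 in silencing and the phosphatase gene Phlpp2 -0.20 in overexpression. Among anchors, Akap5, which holds PKC and other kinases at the postsynaptic membrane, was lower in every Ptbp1 shRNA library (349 ± 112 against 730.3 ± 232 CPM, -1.07, adjusted p = 0.168). Cavin2 had 3.42 from 0.627 CPM in silencing, and Pard3 and Akap13 had 0.70 and 0.59 in overexpression. Among substrates, Marcks, a major PKC target at the membrane, had -0.23 and Adcy2 -0.37 in overexpression. In silencing Marcksl1 had -1.60 and Ppp1r14b 3.83, the latter from 0.0728 ± 0.163 CPM in the scrambled to 1.07 ± 1.17 in the Ptbp1 shRNA libraries.

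**Figure D5:**
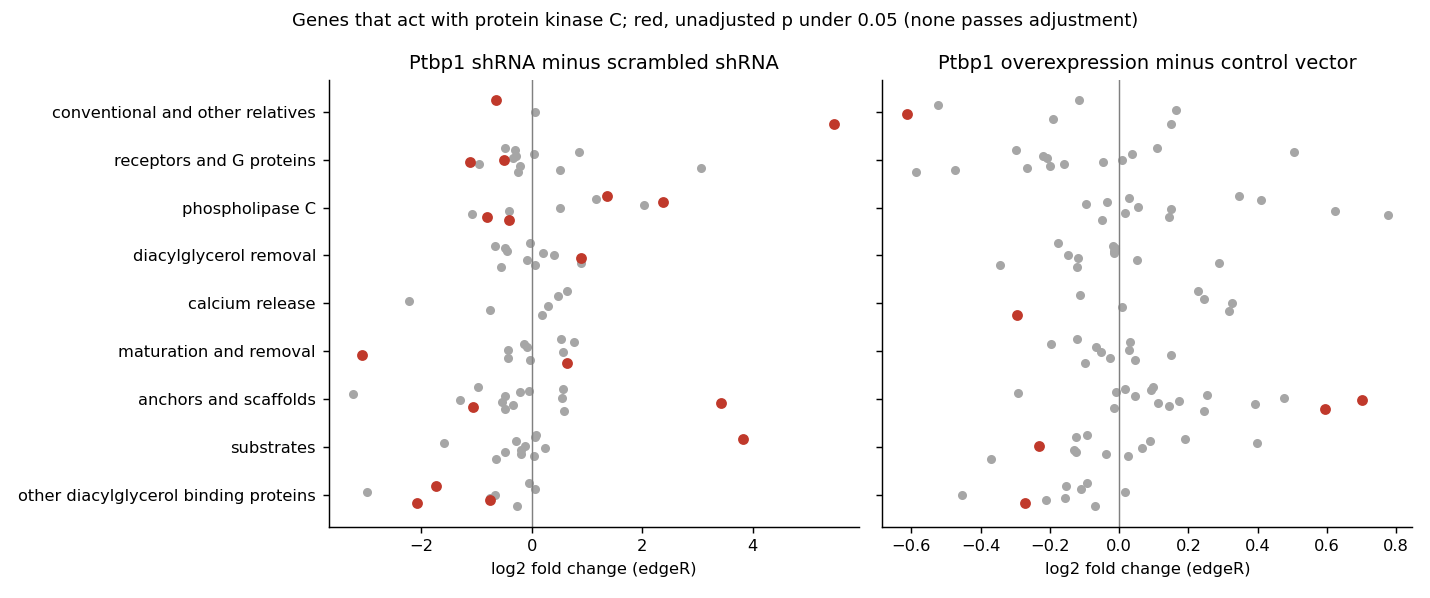
Log2 fold changes (x axes, which differ in range) of the genes of the PKC pathway list by role (y axis), in silencing (left) and overexpression (right), with genes at an unadjusted p under 0.05 in red. In silencing 53 of 87 genes lie below 0 and in overexpression 51 of 96.

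The genes whose profile over the 18 libraries was most like that of a PKC gene were found among 7561 genes whose log2 CPM averaged 3 or more in both experiments. Likeness was the root mean square difference of log2(CPM + 0.5) after centring each experiment, and it describes libraries that share depth and coverage. For Prkca the nearest genes were R3hdm2 (0.165) and Cadps (0.180), beside a median of 0.598 over all genes. For Prkcb they were Cpne6 (0.154) and Eno1b (0.169), for Prkce Gm26723 was the nearest named (0.128), and for Prkci Camk2n2 (0.139) and Ppm1a (0.147). For Prkcz, the gene with the largest spread of its own (0.488), they were Wdr61 and Ube2e3 (0.192 each).

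The differences between the silencing and overexpression responses of the remaining PKC genes did not pass the threshold. They come from the same fit with 1 spread for both experiments. Their SEs, intervals and p may therefore be too small for the more variable silencing libraries. For Prkce the difference was -0.44 (SE 0.19, 95% interval -0.84 to -0.04, which leaves out 0), for Prkci 0.49 (SE 0.27), for Prkcz -0.58 (SE 0.40) and for Prkcb -0.11 (SE 0.23), with adjusted p of 0.287, 0.416, 0.553 and 0.896 by edgeR. For Prkcd, Prkch and Prkcq the fit gave adjusted p of 0.183, 0.893 and 0.900. Their counts in silencing came mostly from single libraries, so no size is given.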

How the data were processed

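Counts per gene and per exon bin were analysed for 18 TRAP libraries. The authors deposited raw counts, whole numbers per Ensembl gene (1 table per experiment) and per numbered exon bin of each gene (1 file per library). STAR 2.5.3a, HTSeq and the build mm10 are named per the submitters' processing notes, with no role stated; the annotation and the strand setting were not stated. No column of per-sample values was left unused. Bin coordinates were rebuilt from GENCODE M21 (mm10); the bin number matched for 89.4% of 34765 single-gene identifiers and for 7 of the 8 PKC genes, not Prkcd.

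Groups follow the treatment labels, and replicate numbers are names only. Each library is 1 mouse, so p-values measure the spread between mice. Separate fits for silencing and overexpression used R 4.3.3 and edgeR 4.0.16 (filterByExpr, TMM, robust quasi-likelihood test, Benjamini-Hochberg threshold 0.05) over all genes, and with diffSpliceDGE over all bins; the difference of responses was fitted over 18 libraries with 4 group means. SE is the size of a log2 fold change over the root of its F value. Shares were compared by exact permutation tests. Alternatives were DESeq2 1.42.0, limma 3.58.1, other scalings and filters, other share scales and leaving out libraries. Scripts were tested on simulated data.

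The PKC genes, the pathway and marker lists and the tests were chosen with earlier results of these data known. Named genes are the 8 PKC genes, Ptbp1, the 2 tested genes with the smallest p per role and experiment, and the 2 nearest profiles; named bins are those called, the 5 with the smallest p and those at the PKMζ start and PKCβ ends. Some genes that the rule names are not reported here.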

Additional observations from a re-analysis of the deposited data

Results flagged for a closer look

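Of 38 sets of values of 1 quantity in 1 group that were checked for a library far from the others, 7 had one; chance flags about 1 in 20 where values are normally distributed; for Prkcd, Prkch, Prkcq and the Prkcz share, where most libraries are at or near 0, that rate does not apply. All 7 were in silencing. Prkcd had 2.65 CPM in scrambled replicate 2 against at most 0.0781 in the other scrambled libraries. Prkch had 3.24 CPM in scrambled replicate 5 against 0 in the others of its group, and 1.79 CPM in Ptbp1 shRNA replicate 3 against at most 0.0784. Prkcq had 4.83 CPM in Ptbp1 shRNA replicate 1 against at most 0.201. Prkci had 479.8 CPM in scrambled replicate 5 against at most 272 in the other scrambled libraries. The upstream PKCζ share of Prkcz was 1.68% in scrambled replicate 2 and 0 in the others. The βII share of Prkcb was 22.9% in scrambled replicate 5, and the next lowest of its group was 37.9%.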

How the results depend on the processing

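No paired analysis was possible because the labels give no replicate numbers that groups share. The number of PKC genes called in silencing, 0, became 1 with DESeq2 and 2 (Prkca and, at an adjusted p of 0.0422, Prkcd) with all 18 libraries and 1 spread, which gives the more variable silencing libraries the spread of both experiments. The number called for the difference of responses, 0, became 1 with DESeq2 and ran from 0 to 1 when each library was left out. Counts of PKC genes called in overexpression and of PKC exon bins called stayed at 0 under every alternative run. Of 187 recomputed log2 fold changes of PKC genes, 180 kept direction and side of the threshold, 2 (Prkca in silencing) passed it and 5, all from leaving out a library, changed sign without passing: Prkcd in overexpression ran from -0.26 to 0.16 and Prkce from -0.021 to 0.055. The differences of responses ran from -4.07 to 6.45 for Prkch and from -3.03 to 2.29 for Prkcq. The Prkcz share in overexpression, -0.0192 points, turned to 0.0618 as a log2 ratio with 0.5 counts added and ran from -0.0528 to 0.0325 without single libraries; in silencing it was 0 without scrambled replicate 2. The βII difference ran from 3.43 to 8.91 points in silencing and from -2.42 to -0.41 in overexpression, with no p under 0.05. Over all genes, silencing calls were 0 in edgeR, 434 with DESeq2, 69 with limma, 11 without a filter and 1775 with 1 spread, and overexpression calls 7, 40, 8, 8 and 0; the cause was not tested. Without each library they ran from 0 to 5 in silencing. All bins called in silencing were 1, 8 with limma and 6 with a mean of at least 10 counts, 0 without both least evenly covered libraries, and 0 to 3 without single ones. Low counts limit Prkcd, Prkch and Prkcq throughout.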
